A study of Mus musculus with 45 samples.

Results

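Of 45 mammary tumors, 6 were labelled as p53-/- transplants, with the genotype p53fl/fl;MMTV-cre, and their DNA copy number was compared with that of the 39 tumors of the other 7 models. The titles of these 6 samples call them primary tumors, as those of all samples do, and the word transplant stands only with the model. In these mice both p53 alleles are floxed and Cre recombinase is driven by MMTV, a promoter active in mammary epithelium, so that p53 is removed there, while the genotype of the host cells in a transplanted tumor is not given in the labels. Within the study, the 6 tumors were taken by the model named in their labels and by no measured value. The comparison tumors came from BRCA1fl/fl;p53+/-;MMTV-cre mice (n = 5, written BRCA1-/-;p53+/-), which carry 1 intact p53 allele in the germ line, and from mice with the transgenes MMTV-c-Myc (n = 5), MMTV-Her2/neu (n = 5), MMTV-H-Ras (n = 5), MMTV-PyMT (n = 9), MMTV-Wnt1 (n = 5) and C3(1)/SV40 T/t-antigens (n = 5, written C3(1)-Tag). All tumors came from female mice. Age, strain and treatment are not given in the labels. Each tumor had 1 array, on which its genomic DNA and reference DNA from pooled spleen were hybridized in 2 colours to 44K Agilent probes.

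p53, encoded by Trp53, is a transcription factor that stops the cell cycle or starts apoptosis when DNA is damaged. Cells without it tolerate broken and missegregated chromosomes, and tumors without p53 often carry many gains and losses of DNA. Array comparative genomic hybridization measures such changes as a log2 ratio of tumor to reference signal at each probe. Here 0 is the autosomal median of each array, and a positive value is read as a gain and a negative value as a loss. In a tumor altered over most of its genome, which parts count as gained or lost depends on that centre. In DNA of whole tumors, fewer tumor cells and fewer copies per tumor cell cannot be told apart.

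The sign of every value rests on a choice. By the labels, tumor DNA carried Cy5 and reference DNA Cy3. The intervals that the authors called run the other way, since of 676 autosomal ones (3 probes or more, mean 0.2 or more in size) 15 had a sign opposite to Cy3 over Cy5, and of the 244 in p53-/- tumors 4 did. Cy3 over Cy5 was therefore read as tumor over reference, against the labels and with the values known, and the dyes as labelled would turn each gain below into a loss.

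The single-probe noise SD of the p53-/- arrays was 0.197 to 0.476 and that of the other arrays 0.158 to 0.473, so that the precision was alike at the upper end. The p53-/- tumors P53_2979 and P53_5809 stood apart from the other 4. Their noise SDs were 0.448 and 0.476, against 0.197 to 0.268 in P53_1573, P53_5817, P53_5851 and P53_8546. Their bin profiles correlated with each other at r = 0.72 and with an MMTV-Her2/neu tumor each at 0.73 and 0.66, and they lacked the amplified and focal loci that the other 4 shared. At some of the focal loci, given below, their values may be no measured ratio. The labels of these 2 arrays may be wrong, which was not tested, and every mean and p over 6 tumors takes them as labelled. Results are therefore also given for the 4 tumors alone, an alternative added after the data had been seen. The 6 arrays lay on 2 slides that held no other model, so that slide and model cannot be told apart. The tumors P53_1573, P53_2979 and P53_8546 were scanned on a date with 13 arrays of other models, here scan date 1, and the other 3 on a date with 3 arrays of other models, scan date 2.

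The targeted gene did not mark the model. Trp53 had 2 probes, on chromosome 11 of mm8 at chr11:69396256-69396315 and chr11:69399814-69399873, and the sources used here do not say which exons the floxed allele loses, so that either probe may lie outside the deleted part. The mean log2 ratio of both probes was -0.53 in P53_1573, 0.17 in P53_2979, -0.18 in P53_5809, 0.03 in P53_5817, -0.13 in P53_5851 and -0.48 in P53_8546. P53_1573 and P53_8546 were lowest in this mean, and all 6 values lay within or just beyond the range of the other tumors, -0.51 to 0.40. The mean was -0.19 ± 0.28 (SD, n = 6) against -0.07 ± 0.19 (SD, n = 39), a difference of -0.11 that did not pass the two-sided exact permutation test (p = 0.206). In the 4 tumors without the pair the difference was -0.21 (exact permutation p = 0.0531).

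Copy number was altered over more of the genome in p53-/- tumors than in the other tumors, by both gains and losses. Autosomes were divided into segments of equal log2 ratio, a segment mean of at least 0.2 in size was called, and each of 2057 autosomal bins of 1 Mb took the state of most of its probes. P53_1573 had 76.9% of bins altered, P53_8546 72.0%, P53_2979 62.0%, P53_5809 59.0%, P53_5817 29.0% and P53_5851 20.9%. The 6 tumors thus fell between the extremes of the other 39, of which 26 lay below the lowest p53-/- tumor and 1 above the highest. The mean share was 53.3% ± 23.0 (SD, n = 6) against 19.4% ± 21.8 (SD, n = 39), 33.9 percentage points apart (two-sided exact permutation test, p = 0.0016). Without the pair it was 30.3 points (exact permutation p = 0.0142).

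Gains and losses contributed about equally in 4 of the tumors. Centring on the autosomal median leaves equal numbers of probes above and below 0, so that this balance is partly set by the centring. Gained bins made up 37.0% of the genome in P53_1573, 33.3% in P53_8546, 14.1% in P53_5817 and 10.2% in P53_5851, and lost bins 39.8%, 38.7%, 14.9% and 10.7%. In the pair gains exceeded losses, with 35.2% gained and 26.8% lost in P53_2979 and 46.7% gained and 12.3% lost in P53_5809. Against the other 39 tumors, the gained share was 18.3 percentage points higher (exact permutation p = 0.00106) and the lost share 15.7 points higher (exact permutation p = 0.00883). The median tumor of the other models had lost 0.29% of its bins, the median p53-/- tumor 20.8%. The models differed, with mean lost shares of 20.2% in BRCA1-/-;p53+/-, 19.5% in MMTV-Her2/neu and 18.7% in C3(1)-Tag tumors. From the p53-/- mean of 23.9% these did not differ (exact permutation, adjusted p over 7 models = 0.654 each).

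**Figure D1:**
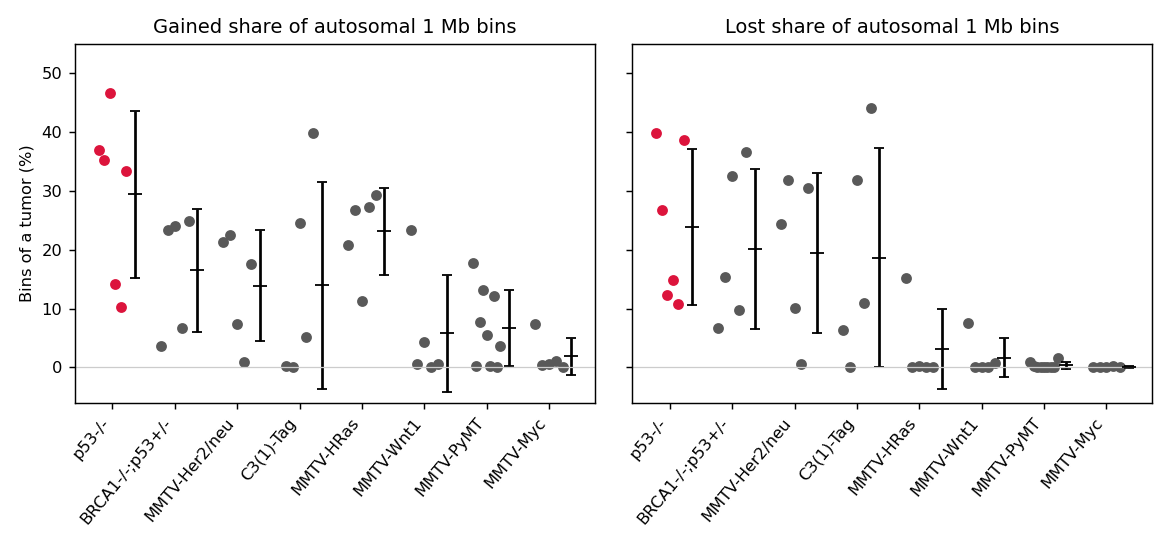
Share of the 2057 autosomal 1 Mb bins in percent (vertical axis) that were gained (left panel) or lost (right panel) in each tumor (points) of the 8 models (horizontal axis), with the mean and SD of each model as a bar beside its points. The p53-/- tumors lie between 10.2 and 46.7% gained and between 10.7 and 39.8% lost, while most MMTV-Myc, MMTV-PyMT and MMTV-Wnt1 tumors lie near 0 in the right panel.

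The excess was not found against every model. The altered share was 51.3 percentage points higher in p53-/- than in MMTV-Myc tumors (1.96% ± 3.10, SD, n = 5; exact permutation, adjusted p over 7 models = 0.0227), 46.3 points higher than in MMTV-PyMT tumors (7.01% ± 6.57, n = 9; exact permutation, adjusted p = 0.0014) and 45.9 points higher than in MMTV-Wnt1 tumors (7.42% ± 13.2, n = 5; exact permutation, adjusted p = 0.0303). The difference from MMTV-HRas tumors, 27.1 points, did not pass (exact permutation, adjusted p = 0.0758). Nor did those from C3(1)-Tag tumors (20.7 points; exact permutation, adjusted p = 0.266), MMTV-Her2/neu tumors (19.9 points, 0.252) and BRCA1-/-;p53+/- tumors (16.6 points, 0.266), each of which held tumors above 50% altered as well as tumors near 10% or lower. For losses alone, MMTV-HRas tumors also differed, with a share 20.7 points lower than in p53-/- tumors (exact permutation, adjusted p = 0.0341).

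The scan dates split the p53-/- tumors. On scan date 1, the altered share of the 3 p53-/- tumors was 58.5 points above that of 13 tumors of other models (exact permutation p = 0.00179, the smallest this size allows). On scan date 2 the difference was 13.9 points (exact permutation p = 0.5), where the smallest p of 3 against 3 is 0.1. With the label permuted within both dates the difference was 36.2 points (exact permutation p = 0.00241).

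Of the 6 profiles, 4 were broken into many short pieces. P53_5851 had 661 autosomal segments, P53_5817 514, P53_1573 507 and P53_8546 499, whereas P53_2979 and P53_5809 had 83 each, below the median of 91 in the other 39 tumors. The mean of 391 ± 246 (SD, n = 6) was 267 segments above the 124 ± 120 (SD, n = 39) of the other tumors (exact permutation p = 0.000941). It did not pass against BRCA1-/-;p53+/- (mean 259), MMTV-Her2/neu (272) or MMTV-Wnt1 tumors (88.4; exact permutation, adjusted p over 7 models = 0.326, 0.439 and 0.0576). Against C3(1)-Tag, MMTV-HRas, MMTV-Myc and MMTV-PyMT tumors it passed (exact permutation, adjusted p = 0.0476 to 0.0492). Within the scan dates the difference was 207 and did not pass (stratified exact permutation p = 0.108). Altered segments under 1 Mb numbered 249 to 328 in the 4 tumors and 15 and 16 in the pair, and single probes that deviated by over 1.5 from the median of the probes around them numbered 376 to 733 per p53-/- array (median 556) against 12 to 649 (median 86). This number was highest in the pair, with 680 in P53_2979 and 733 in P53_5809 against 376 to 585 in the other 4 tumors. Long altered segments were present in all 6: those over 10 Mb numbered 63 in P53_1573, 50 in P53_8546, 30 each in P53_2979 and P53_5809, 18 in P53_5817 and 15 in P53_5851. They covered 1133 to 1432 Mb in P53_1573, P53_2979, P53_5809 and P53_8546, and 399 and 321 Mb in P53_5817 and P53_5851.

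Whole chromosomes were often changed, but seldom the same way in every tumor. A chromosome with at least 50% of its bins in 1 state was gained or lost 14 times each in P53_1573 and P53_8546, 11 times in P53_2979, 10 in P53_5809, 5 in P53_5817 and 4 in P53_5851, against a median of 2 in the other tumors. Chromosome 6 was the one gained most, in 4 p53-/- tumors by this measure (P53_1573, P53_2979, P53_5809 and P53_8546) and in 9 of the other 39. Chromosome 19 was lost in 3 p53-/- tumors, chromosome 3 in 2 and chromosome 17 in 2, and none of these chromosomes was lost in any of the other 39. Chromosomes 3 and 19 were also gained in 3 and 2 of the p53-/- tumors.

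None of the 19 autosomes passed the test of its mean log2 ratio (two-sided exact permutation test, Benjamini-Hochberg adjusted p of at most 0.05, 0.0% called higher and 0.0% lower), while 3 were higher and 1 lower at an unadjusted p under 0.05. Chromosome 17 came closest, at -0.28 in P53_1573, 0.28 in P53_2979, -0.18 in P53_5809, -0.13 in P53_5817, -0.07 in P53_5851 and -0.30 in P53_8546. Only P53_2979 stood above 0 there, whereas 11 of the other 39 tumors had gained chromosome 17, and the difference was -0.21 (exact permutation p = 0.00416, adjusted p = 0.0791). Chromosome 1 differed by 0.20 (exact permutation p = 0.00897, adjusted p = 0.0852), with 0.53 and 0.52 in P53_1573 and P53_8546 and -0.09 in P53_5809. Chromosome 16 differed by 0.22 (exact permutation p = 0.0135, adjusted p = 0.0854), and this rested on P53_5809 at 0.72 and P53_2979 at 0.44, without which it was 0.03.

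Leaving out the pair changed these calls. In the 4 tumors alone chromosome 1 was higher by 0.31 (exact permutation p = 0.00199), and chromosomes 14 and 17 were lower by 0.30 and 0.29 (exact permutation p = 0.000243 and 0.000794), all past the adjusted threshold. On chromosome 14 the 4 tumors were at -0.41, -0.40, -0.27 and -0.07 and the pair at 0.33 and 0.31. With the label permuted within the scan dates, chromosomes 1 and 6 were higher, by 0.26 and 0.24, and chromosome 12 lower by 0.13 (exact permutation p = 0.00214, 0.00446 and 0.00277).

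**Figure D2:**
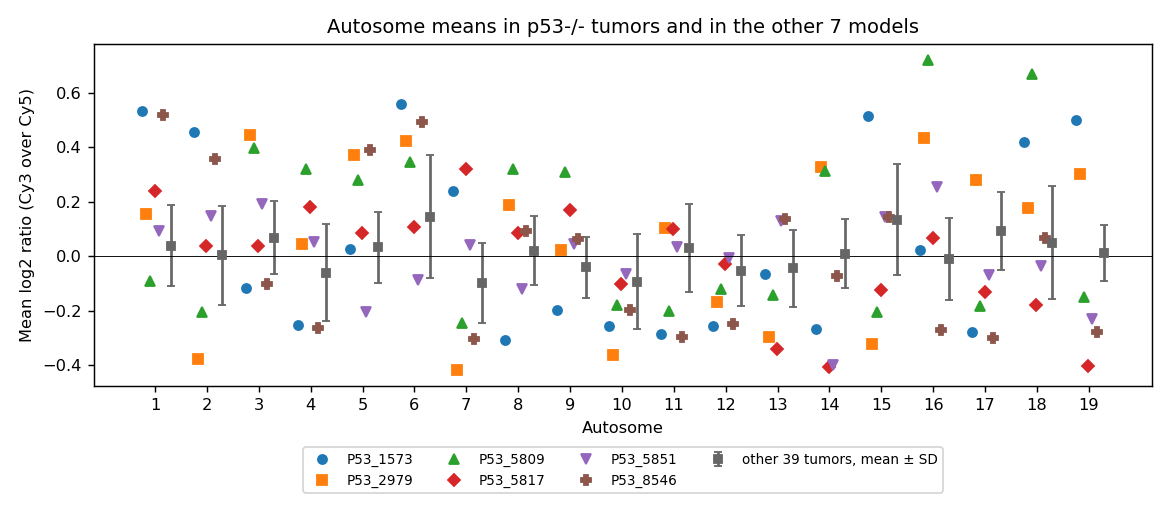
Mean log2 ratio (Cy3 over Cy5, vertical axis) of each of the 19 autosomes (horizontal axis) in the 6 p53-/- tumors (coloured symbols), beside the mean and SD of the other 39 tumors (grey). The p53-/- tumors spread to both sides of 0 on most chromosomes, and chromosomes 10 and 12 are below 0 in all 6.

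The regions shared by the 6 tumors were few beside the altered total. Of the 2057 bins, 2048 were altered in at least 1 of the 6 tumors and 1076 (52.3%) were gained in one and lost in another. Gains in at least 4 tumors covered 211 bins, 129 of them on chromosome 6, 38 on chromosome 16 and 32 on chromosome 3, and gains in at least 5 covered 43. Losses in at least 4 tumors covered 62 bins, 25 of them on chromosome 19, 14 on chromosome 17 and 10 on chromosome 12, and no bin was lost in 5.

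**Figure D3:**
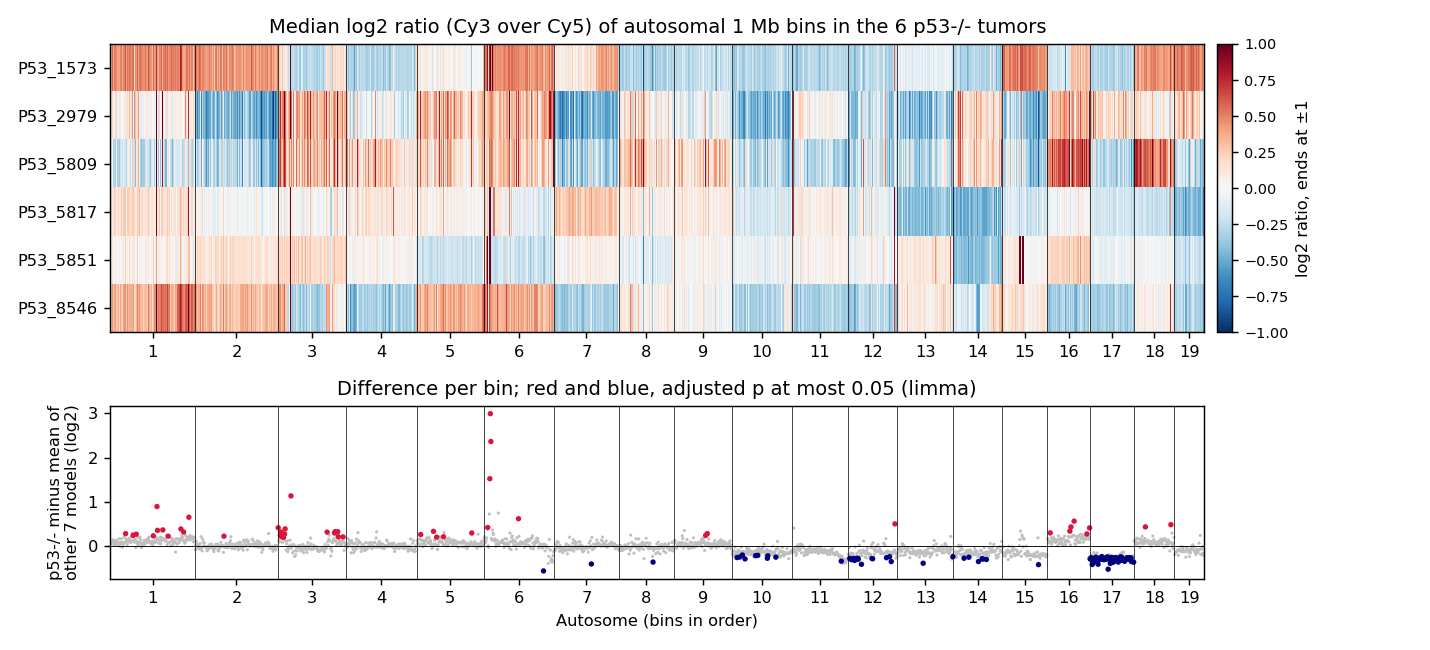
Top, median log2 ratio (Cy3 over Cy5, colour scale ending at 1 in size) of the autosomal 1 Mb bins in genome order (horizontal axis) in each p53-/- tumor (rows). Bottom, the p53-/- mean minus the mean of the other 7 models for each bin, with the 47 higher bins in red and the 99 lower bins in blue, of which 64 form the blue band on chromosome 17.

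Bin values were then compared one by one, as the p53-/- mean minus the mean of the other 7 model means. At a limma adjusted p of at most 0.05, 47 bins were higher (2.28%) and 99 lower (4.81%), 7.1% in all. Of the lower bins 64 lay on chromosome 17, 13 on chromosome 12 and 9 on chromosome 10, and of the higher bins 14 lay on chromosome 3, 11 on chromosome 1, 6 on chromosome 16 and 5 each on chromosomes 5 and 6. Of the 39 runs of consecutive higher bins 33 were of 1 bin, and of the 42 lower runs 28 were. The longest run had 3 bins among the higher and 18 among the lower. Fewer bins were called with limma's array quality weights, which fall as an array departs from the mean of its model, 5 higher and 4 lower, with weights of 0.22 to 0.70 for the p53-/- arrays. Without the pair the counts rose to 98 and 167.

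The highest run lay at chr6:16000001-19000000 and is described below with the gene Met. The next was a single bin, chr3:35000001-36000000, which holds Atp11b, a phospholipid-transporting ATPase. Its median log2 ratio was 1.69 in P53_1573, 1.02 in P53_2979, 0.17 in P53_5809, 1.54 in P53_5817, 2.07 in P53_5851 and 1.30 in P53_8546. The value of P53_5809 recurred unchanged at unrelated loci described below and may be no measured ratio, which was not tested. There 5 tumors stood above 1, against a median of 0.07 in the other 39, whose highest value was 1.82, and the difference was 1.14 ± 0.18 (SE, limma adjusted p = 4.23e-05). The bin rests on 3 probes, and after normexp background correction of the raw signals the difference was 0.50 (limma adjusted p = 0.0032).

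Next came 2 bins on chromosome 1. At chr1:111000001-112000000, with Cdh7, a cadherin, the 6 values ran from 0.43 in P53_5851 to 1.31 in P53_8546, against a highest value of 0.73 in the other 39 (difference 0.90 ± 0.16, limma adjusted p = 0.000268). At chr1:185000001-186000000 they ran from 0.31 in P53_5851 to 1.31 in P53_8546, against a highest value of 0.50 (difference 0.66 ± 0.11, limma adjusted p = 0.000136). The groups overlapped at both. After normexp correction the differences were 0.17, which did not pass, and 0.32 (limma adjusted p = 0.252 and 0.0306), and with array weights that of the first did not pass either (0.82, limma adjusted p = 0.109). Within the second bin the transcript AK006811 was higher (0.81 ± 0.18, limma adjusted p = 0.00174), while Dusp10, a MAP kinase phosphatase with 2 probes in the same bin, was at 0.08 ± 0.13 (limma adjusted p = 0.692).

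Bins of 3 probes on chromosomes 6 and 16 were highest in the pair. At chr6:80000001-81000000, with the transcript BC037216, P53_2979 and P53_5809 were at 1.39 and 1.29, P53_8546 at 0.96, P53_1573 at 0.58, P53_5817 at 0.19 and P53_5851 at -0.01, and the difference of 0.62 fell to 0.32 without the pair (limma adjusted p = 0.0255 and 0.324) and to 0.17 after normexp correction (limma adjusted p = 0.252). At chr16:60000001-61000000, with Epha6, an ephrin receptor, P53_5809 was at 1.26 and P53_2979 at 0.87, and the difference of 0.57 fell to 0.32 without the pair but still passed (limma adjusted p = 0.000613 and 0.0378). With array weights it was 0.44 and did not pass, and after normexp correction it was 0.74 (limma adjusted p = 0.13 and 3.94e-05). The transcripts AK038675 and AK049912 in these bins were at 0.18 ± 0.19 and 0.05 ± 0.15 (limma adjusted p = 0.569 and 0.87).

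The strongest gain was a short stretch of proximal chromosome 6 around Met, present in 4 of the 6 tumors. Met encodes the receptor of hepatocyte growth factor, a tyrosine kinase that drives growth and invasion of epithelial cells. Its log2 ratio was 4.57 in P53_1573, 5.47 in P53_5817, 5.04 in P53_5851 and 5.10 in P53_8546, but 0.00 in P53_2979 and 0.04 in P53_5809. The tumors thus fell into 2 sets with nothing between them. The difference of 3.06 ± 0.52 (SE) passed the test (limma adjusted p = 7.2e-05), and without the pair that of the bin at chr6:17000001-18000000 rose from 2.99 to 4.51.

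The part of the gain shared by these 4 tumors was chr6:17442331-18022093, 580 kb with 12 probes. It holds Met, Capza2 (a subunit of the actin capping protein), St7, Wnt2 (a Wnt ligand), Asz1 and the transcripts AK145182 and AK045027. The mean over it was 4.55 in P53_1573, 5.43 in P53_5817, 4.95 in P53_5851, 4.79 in P53_8546, 0.48 in P53_2979 and 0.43 in P53_5809. Of the other 39 tumors 2 reached 1 there, the BRCA1-/-;p53+/- tumor Brca_14 at 3.69 and the tumor labelled MMTV-Wnt1 Wnt_4635 at 1.87, and their median was 0.06. The label of Wnt_4635 is in doubt, since its Wnt1 probe read 0.07 and those of the other 4 MMTV-Wnt1 tumors 1.07 or more.

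The ends of the gain differed between the tumors. In P53_8546 it was shortest, 784 kb from Cav2 to Asz1. In P53_1573 it began at Met and ran 3951 kb to Kcnd2, so that Cav1 and Cav2, the caveolin genes next to Met, were at 0.56 and 0.40 in that tumor and at 4.50 to 5.53 in the other 3. In P53_5817 it ran 3502 kb from Foxp2 and in P53_5851 4990 kb from Tcfec to Kcnd2. The tumor suppressor candidate Tes was within it in P53_5817 (5.49) and P53_5851 (3.46) and outside it in P53_8546 (0.59) and P53_1573 (0.51), and Cftr, the chloride channel of cystic fibrosis, was within it in 3 tumors (4.50, 5.88 and 4.57) and at 1.03 in P53_8546.

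Beyond 30 Mb the rest of chromosome 6 followed its own course. Its mean was 0.48 in P53_1573 and 0.46 in P53_8546, 0.42 and 0.34 in the pair, and -0.01 and -0.19 in P53_5817 and P53_5851. The gain around Met therefore lay on a raised chromosome in 2 tumors and on one near or below 0 in the other 2.

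**Figure D4:**
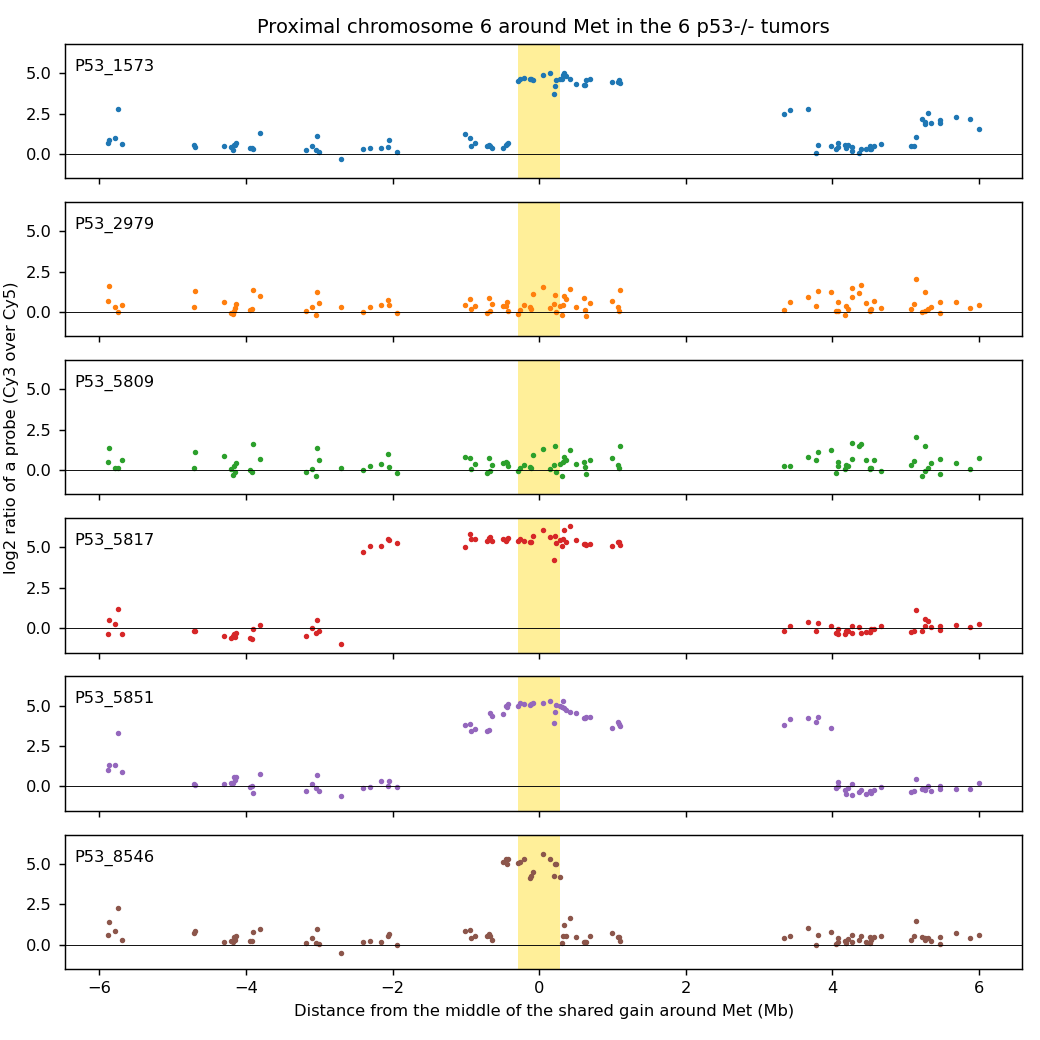
Log2 ratio (Cy3 over Cy5, vertical axis) of single probes against their distance in Mb from the middle of the 580 kb stretch shared by 4 tumors (yellow band), 1 panel per p53-/- tumor. The high probes cover the band in P53_1573, P53_5817, P53_5851 and P53_8546 and end at different distances, and the band holds no such step in P53_2979 and P53_5809.

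Of the 14 genes listed for proximal chromosome 6, all were on the array and 11 passed as higher and 0 as lower, with a median difference of 2.36, against 9.08% of all gene names called higher and 7.59% lower and a median of 0.0038 over all gene names. The list was drawn up with the Met gain known, so that its direction is no independent evidence. St7 (3.38 ± 0.41 SE, limma adjusted p = 1.51e-07) and Wnt2 (3.32 ± 0.37, limma adjusted p = 2.69e-08) differed most, and they stood at 0.54 to 0.93 in the pair also. Mdfic, Foxp2 and Ppp1r3a, on the centromeric side, did not pass. Tes and Tcfec, which were high in P53_5817 and P53_5851 alone, did not pass without P53_5817 (limma adjusted p = 0.296 and 0.326), with scan date as a block (0.0667 and 0.0841) or with slide as a random block (0.0812 and 0.0902).

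Other high-level gains were each found in a single tumor. P53_8546 had 3 more on chromosome 6 at nearly the same height as at Met. They were chr6:36375629-36988755 with Ptn (pleiotrophin, a growth factor) and the transcript AK081360, median 4.44 over 11 probes, chr6:50032007-50210558 with Mpp6, median 5.02 over 7 probes, and chr6:53522330-53794696 with Creb5 (a transcription factor of the CREB family), median 4.90 over 6 probes. At the Mpp6 segment the other 5 p53-/- tumors had medians of -0.09 to 0.57, at the AK081360 segment of -0.23 to 0.44 and at the Creb5 segment of -0.06 to 0.71, and at none of the 3 segments did a tumor of another model reach 1.

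P53_5851 had a row of gains on chromosome 15. Their medians were 2.06 at chr15:47528235-50826883 (Trps1, a zinc finger repressor), 2.10 at chr15:53224283-54494182 (Tnfrsf11b, the decoy receptor osteoprotegerin), 1.56 at chr15:54539781-55274734 (Enpp2, the enzyme autotaxin) and 2.07 at chr15:56483204-57978535 (Has2, a hyaluronan synthase). P53_1573, the next highest p53-/- tumor, was at 0.55 to 0.67 there. P53_1573 itself had a gain at chr6:22956507-25797893, median 1.99 over 47 probes, where the other 5 tumors were at -0.16 to 0.42.

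Segments with mean and median at least 1 in size numbered 94 in the 6 tumors, 73 gains and 21 losses, with 5 to 24 per tumor (median 17.5) against 0 to 27 (median 1) in the other 39. Of the 94, 75 had only 5 or 6 probes and 13 had over 10. All 21 losses were in the 4 tumors with the Met gain, 5 or 6 in each.

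Of the high-level segments outside proximal chromosome 6, 10 short loci recurred in at least 3 of these 4 tumors, and none passed 1 in size in the pair. Of these, 8 are described here. The deepest was the transcript AK155119 at chr11:116570620-116571580, whose 3 probes had a median of -5.80 in P53_1573, -6.13 in P53_5817, -6.47 in P53_5851 and -6.15 in P53_8546, against -0.05 in P53_2979 and -0.36 in P53_5809. No other tumor fell below -0.40 there, and 6 tumors of other models were above 1. On the mean of the 3 probes the difference was -4.28, and after normexp correction it shrank to -1.44 (limma adjusted p = 1.96e-08 and 8.27e-06). The 5 probes on each side of it had medians of -0.26 to 0.01 in the 4 tumors, so that the value belonged to these probes alone.

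Gains of this kind lay at chr13:114867700-115258904 (Arl15, 2.10 to 2.86 in the 4 tumors), chr17:35747171-35836617 (H2-T3, a class I gene of the major histocompatibility complex, 1.998 to 2.64), chr7:48066915-48315862 (Mrgprb4 and its neighbours, receptors of a multigene family, 1.15 to 2.15) and chr1:175677083-175792199 (Ifi203, an interferon-inducible gene, 1.497 to 2.02). The locus of Trpm8, a cold-sensing channel, was at 1.49 to 1.62 in 3 tumors and 0.26 in P53_5851. Losses lay at chr14:50246762-50715386 (-1.86 to -0.84) and chr3:106258630-106389918 (Chia, Chi3l3 and Chi3l4, the chitinase family, -1.37 to -0.86). Several were not particular to these tumors: 5 BRCA1-/-;p53+/- tumors passed 1 at the Mrgprb locus and 2 at Ifi203. Of the same model, Brca_14 passed 1 at Arl15 and Brca_54 at H2-T3. Probes of such families can bind more than 1 copy of the gene, which leaves their position uncertain. P53_5809 had the identical value 0.171611 at the Arl15, H2-T3 and Mrgprb loci and at chr3:35000001-36000000 above. P53_2979 had 0.117199 both at Arl15 and in the bin chr12:114000001-115000000. Such repeated values may be no measured ratio, which was not tested and leaves the state of these arrays there open.

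**Figure D5:**
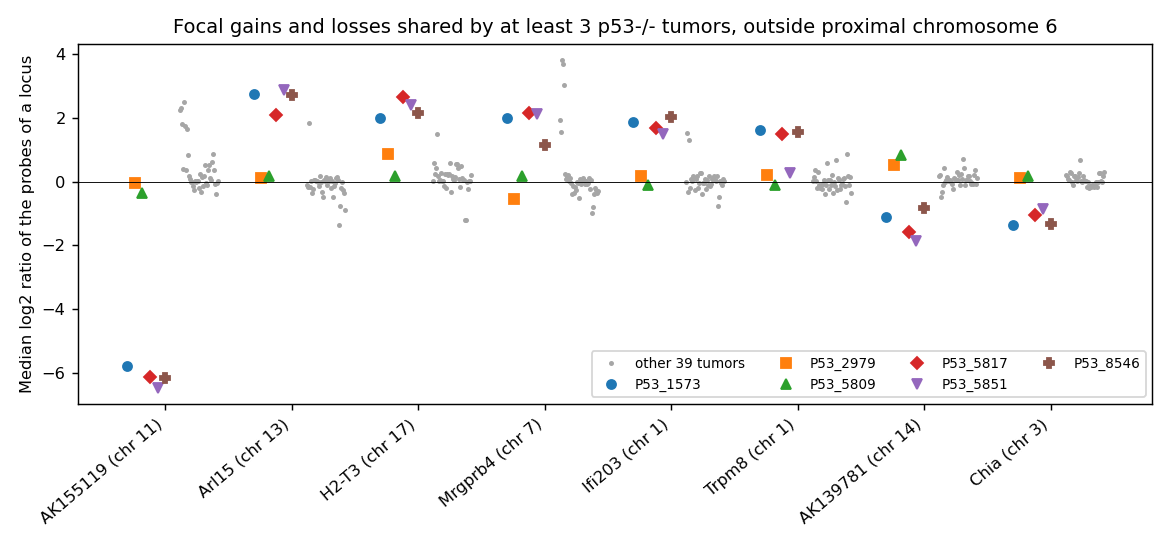
Median log2 ratio (Cy3 over Cy5, vertical axis) at 8 of the 10 short loci shared by at least 3 p53-/- tumors outside proximal chromosome 6 (horizontal axis, named by a gene), with the p53-/- tumors as coloured symbols and the other 39 tumors in grey. At AK155119 P53_2979 and P53_5809 lie among the other tumors, and the other 4 p53-/- tumors are at -5.80 to -6.47.

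Single gene names were tested next, on the mean of their probes. Of 19718 names, 1790 were higher (9.08%) and 1497 lower (7.59%). Only 114 of the higher and 437 of the lower names lay in a bin called the same way (6.37% and 29.2%), while the bin differed with the same sign, called or not, for 1423 and 1373, and 781 and 786 of the names had 1 probe. Over 11 gene lists and without the genes of proximal chromosome 6, the 29 called names included 3 in a bin called the same way and 6 with 1 probe. Of these 29, 11 passed without the pair, 12 with scan date as a block and 15 with slide as a random block, and 6 passed in these 3 fits, with array weights, with the other centring, background correction and loess, and with each array left out in turn. These 6 were Atm, Elf5, Mad2l1, Mapk14, Notch4 and Tnfrsf10b, of which Atm went down to 0.29 and Mad2l1 up to 0.97 after normexp correction, and Notch4 and Tnfrsf10b went to -0.48 and -0.30 with scan date as a block. The other 23 lost their call in at least 1 of these fits, 18 of them when 1 p53-/- array was left out, and for 11 of the 18 the adjusted p was highest without P53_5809.

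Not every listed gene had a probe under its name: 28 of 30 were tested for the p53 pathway, 20 of 25 for G1, 20 of 24 for mitosis, 25 of 27 for repair, 20 of 21 receptors, 21 of 21 Ras and MAP kinase genes, 18 of 19 PI3 kinase genes, 17 of 20 for cell death, 12 of 14 for Hippo, 18 of 20 nuclear oncogenes and 15 of 19 lineage regulators.

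In the p53 pathway, 5 of 28 tested members were higher and 4 lower (median difference 0.03), 32.1% called against 16.7% of all gene names. Atm, the kinase that signals double-strand breaks to p53, was -0.27 in P53_1573, 0.31 in P53_2979, 0.62 in P53_5809, 0.64 in P53_5817, 0.10 in P53_5851 and 0.28 in P53_8546. P53_1573 alone was below 0. The other 39 ran from -0.56 to 0.27, and the difference was 0.43 ± 0.10 (SE, limma adjusted p = 0.00179), while its bin differed by 0.0047. Tnfrsf10b, a death receptor for the ligand TRAIL and a p53 target, was -0.58 to -0.35 in all 6 tumors (difference -0.45 ± 0.11, limma adjusted p = 0.00359), of which the probe at chr14:68502624-68502675 carried more (-0.998 to -0.49) than the probe at chr14:68505661-68505720 (-0.39 to 0.16).

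Trp73, a relative of p53, had the largest difference of the pathway, 1.73 ± 0.42 (SE, limma adjusted p = 0.00445), on 1 probe. It read 0.68 in P53_1573, 3.11 in P53_2979, 3.26 in P53_5809, 1.99 in P53_5817, 0.46 in P53_5851 and 2.06 in P53_8546, while the 5 probes on each side had medians of -0.45 to 0.15. The other tumors spread from -1.69 to 2.87 at this probe, and without the pair the difference did not pass (limma adjusted p = 0.164). After normexp correction it was 0.15 (limma adjusted p = 0.429), below that of Atm. Usp7, which removes ubiquitin from p53 and Mdm2, Trp53bp2, a p53 partner in apoptosis, and Mdm4, an inhibitor of p53, were higher by 0.39, 0.31 and 0.29. Apaf1 of the apoptosome, the phosphatase gene Ppm1d and the stress gene Sesn1 were lower by 0.27, 0.30 and 0.23. These 6 lost their calls without the pair. Mdm2 (-0.14, limma adjusted p = 0.468) and Cdkn2a (0.04, 0.854) did not pass, and these, like Mdm4, were picked for mention after their values were seen.

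Among G1 cell cycle genes 2 of 20 were higher and 0 lower (median difference 0.02), 10% called against 16.7% of all gene names. Ccne2, which encodes cyclin E2, was 1.23 in P53_1573, 0.15 in P53_2979, 0.19 in P53_5809, 0.87 in P53_5817, 5.91 in P53_5851 and 0.79 in P53_8546 (difference 1.53 ± 0.34 SE, limma adjusted p = 0.00192). P53_5851 stood far above the rest at both probes, 6.19 and 5.63, and the 5 probes on each side had a median of -0.03 there. Without P53_5851 the difference was 0.65, and with scan date as a block it did not pass (1.32, limma adjusted p = 0.103). Cdc25a, a phosphatase that activates cyclin-dependent kinases, was higher by 0.44 ± 0.11 (limma adjusted p = 0.00494), but only 1 of its 2 probes was raised, at 0.08 to 1.54 against -0.28 to 0.29 at the other.

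Of 20 tested genes of mitosis and the spindle checkpoint, 2 were higher and 0 lower (median 0.03), 10% called against 16.7% of all gene names. Mad2l1, a checkpoint protein at unattached kinetochores, was 1.28 in P53_1573, 0.93 in P53_5817, 1.01 in P53_5851 and 1.13 in P53_8546, and 0.15 and 0.01 in the pair (difference 0.54 ± 0.13 SE, limma adjusted p = 0.00346). The same 4 tumors as at Met were high at its single probe, while the probes around it were at -0.09 to 0.54. Bub1b, a kinase of the same checkpoint, was 0.05 to 0.56 in the 6 tumors (difference 0.35 ± 0.10, limma adjusted p = 0.0119). Of 25 genes of homologous recombination and DNA repair, only Wrn, a RecQ helicase, was higher (0.54 ± 0.15, limma adjusted p = 0.0102), with 1.04 and 1.28 in the pair and -0.23 and -0.10 in P53_1573 and P53_5851, and 0 were lower. The share called was 4%, against 16.7% of all gene names.

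Growth factor receptors gave 1 higher gene, Met, and 1 lower gene of 20, 10% called against 16.7% of all gene names. Erbb3, the partner of Erbb2, was lower by 0.35 ± 0.12 (SE, limma adjusted p = 0.0419), with -1.05 and -0.97 in the pair and -0.48 to -0.10 in the other 4 tumors. Of 21 Ras and MAP kinase genes, 2 were higher and 2 lower, 19% called against 16.7% of all gene names. Mapk14, the p38 stress kinase gene, was -0.43 to -0.24 in 5 tumors and 0.03 in P53_2979 (difference -0.36 ± 0.08, limma adjusted p = 0.00214), and Sos1, a Ras activator also on chromosome 17, was lower by 0.26 ± 0.08 (limma adjusted p = 0.0247). None of 18 PI3 kinase and Akt genes passed in either direction, against 16.7% of all gene names, with differences of -0.23 to 0.37.

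Cell death genes gave 1 higher and 2 lower of 17 (17.6% called, against 16.7% of all gene names), the lower being Apaf1 and Tnfrsf10b above. Bid, a proapoptotic relative of Bcl2 on chromosome 6, was 0.40 to 1.02 in the 6 tumors (difference 0.45 ± 0.16 SE, limma adjusted p = 0.0447). In the Hippo pathway, which limits organ size, 1 of 12 was higher and 1 lower, 16.7% called as among all gene names. Tead1, the DNA-binding partner of Yap, differed by 0.48 ± 0.13 (limma adjusted p = 0.00798), and Sav1, the scaffold of its upstream kinases, by -0.23 ± 0.08 (limma adjusted p = 0.0435).

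Of 18 nuclear oncogenes 1 was higher and 2 were lower (median 0.01, 16.7% called as among all gene names), all 3 of the Notch family of receptors. Notch4 was -0.54 in P53_1573, -0.78 in P53_2979, -1.30 in P53_5809, -0.52 in P53_5817, -0.57 in P53_5851 and -0.75 in P53_8546. All 6 were below 0, P53_5809 below the range of the other 39 tumors (-1.05 to 0.60) and 5 within it, and the difference was -0.77 ± 0.12 (SE, limma adjusted p = 2.76e-05). Its bin, like that of Notch3, lay in the lowered part of chromosome 17 (-0.29 for both bins), where Notch3 differed by -0.33 ± 0.10 (limma adjusted p = 0.0185). Notch2, with 1 probe, was 0.66 to 1.66 in the 6 tumors (difference 1.02 ± 0.27, limma adjusted p = 0.00799), and the probes around it were at -0.40 to 0.43.

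Myc did not pass (difference 0.46, limma adjusted p = 0.53) but held 1 extreme value, which led to its mention here. Its single probe at chr15:61816154-61816213 read 5.80 in P53_5851, 0.65 in P53_1573, -0.04 in P53_8546, -0.25 in P53_5817 and -0.68 in each of the pair. The 5 probes on each side had a median of 0.05 in P53_5851.

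Among 15 regulators of the mammary lineage, 1 was higher and 3 were lower (median -0.07), 26.7% called against 16.7% of all gene names. Elf5, a transcription factor of luminal progenitors and alveolar cells, was 1.55 in P53_1573, 0.40 in P53_2979, 0.64 in P53_5809, 0.93 in P53_5817, 1.15 in P53_5851 and 1.52 in P53_8546 (difference 0.96 ± 0.17 SE, limma adjusted p = 0.000117). Its 2 probes disagreed, at 1.20 to 2.65 for chr2:103250514-103250572 and -0.40 to 0.59 for chr2:103227481-103227540, and the probes around them were at -0.51 to 0.50. Foxa1, a factor of hormone-responsive luminal cells, was lower by 0.39 ± 0.13 (limma adjusted p = 0.0286), Stat5a, which carries the prolactin signal, by 0.28 ± 0.09 (limma adjusted p = 0.0279) and Tnfsf11, the ligand of RANK, by 0.24 ± 0.09 (limma adjusted p = 0.0483). The call of Tnfsf11 held in 12 of 45 fits that left out 1 array each, and without P53_5817 its difference was -0.15 (limma adjusted p = 0.246).

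The 6 profiles varied much among themselves. Pearson's r over the 2057 bins ran from -0.08 to 0.72 in the 15 pairs of p53-/- tumors, with a median of 0.19, and the 234 pairs with tumors of other models had a median of 0.07. Without chromosome 6 the medians were 0.12 and 0.07. Pairs on 1 slide had a median of 0.16 (6 pairs) and pairs on different slides 0.19 (9 pairs). The bins of an array share its library and its centring, so that these values are a description.

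Each tumor had 1 partner. P53_2979 and P53_5809 were joined at 0.72, P53_1573 and P53_8546 at 0.59 and P53_5817 and P53_5851 at 0.58, and the next pair of p53-/- tumors, P53_1573 and P53_5851, was at 0.37. Without chromosome 6 these values were 0.71, 0.55, 0.35 and 0.32, so that the third pair then stood little above the next. P53_1573 and P53_8546 shared a slide and scan date, as did P53_5817 and P53_5851, whereas P53_2979 and P53_5809 shared neither. P53_1573 and P53_8546 had the same state in 61.2% of bins and were altered in opposite directions in 165, whereas P53_1573 and P53_5809 were so in 549. Outside the model, P53_2979 was nearest to the MMTV-Her2/neu tumor H2N1 (0.73) and P53_5809 to H2N53 (0.66), P53_5817 and P53_5851 to the BRCA1-/-;p53+/- tumor Brca_14 (0.45 and 0.42), which also had the Met gain, and P53_1573 and P53_8546 to 2 MMTV-HRas tumors (0.49 and 0.42).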

How the data were processed

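DNA of 45 tumors was hybridized to 1 array each, and tumors were grouped by the model in the labels. Membership followed the labels alone, but the choice of this model for description, the gene lists and the alternatives were made with earlier results of these data known. The authors deposited Feature Extraction output (9.5.1.1 in the file headers, 10.7 in the processing notes), in which spot intensity had been background-subtracted and dye-normalized and each spot had a log10 ratio of Cy5 over Cy3. A further deposited table, used here as an alternative, gives the mean log2 ratio of the intervals that the authors called by ADM-2 (threshold 6). Its p-values and the 8 tables of single models were not used.

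The sign was turned, ratios were converted to log2, control and outlier spots were left out, repeated probes were averaged, and each array was centred on its autosomal median. This left 42235 probes of mm8, 40666 of them autosomal. The median signal was 2.09 to 16.7 times background, and the number of arrays limits the precision. Circular binary segmentation (Python 3.11.15, numpy 2.4.6, numba 0.67.0) accepted a split at a statistic over 6 with at least 5 probes a segment. Bins of 1 Mb needed 3 probes and took their median. Gene names took the mean of their probes, and 19718 of 20093 with a usable spot on every array were tested. Names are those of the array design, of which 11649 matched a RefSeq symbol (GRCm38.p6, names alone) and 2779 a synonym.

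Bins and genes were fitted with limma 3.58.1 (R 4.3.3) over all 8 models, as p53-/- minus the mean of the other 7, with Benjamini-Hochberg adjustment over all bins or names. Single values had two-sided exact permutation tests over 8145060 assignments. P-values measure the spread between tumors. Named genes were Trp53, up to 4 called members of a list in each direction, list members within high-level segments, up to 2 names in the peak bin of the 6 most extreme runs, and the gene at the most extreme probe of the 10 most extreme segments. The scripts were tested on simulated data. Some genes and loci are not reported here.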

Additional observations from a re-analysis of the deposited data

Results flagged for a closer look

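Of 88 sets of 6 p53-/- values, 5 held a value that lay apart from the nearest of the others by more of the range than Dixon's limit allows. Chance flags about 1 in 20 sets that were not chosen for an extreme value, which does not hold for all of these. Ccne2 stood at 5.91 in P53_5851, with the next tumor at 1.23. Notch4 stood at -1.30 in P53_5809, with the next at -0.78. In P53_8546, Mpp6 stood at 5.06, Creb5 at 5.22 and AK081360 at 4.07. These 3 lay in high-level segments of P53_8546 of 6 probes or more and were named for the most extreme probes of such segments, so that their standing apart follows from how they were chosen. The probes on each side of Ccne2 had a median of -0.03.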

How the results depend on the processing

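The altered, gained and lost shares and the number of segments kept their direction in all alternatives run, and their side of the threshold in all but those given here. The gained share with the authors' intervals was 16.6 points higher (exact permutation p = 0.0582), the lost share at a threshold of 0.3 was 4.99 points higher (p = 0.17), and with scan date as a block segments differed by 207 (p = 0.108). Within scan date 2, where exact permutation cannot go below 0.1, the differences were 13.9 altered, 11.9 gained and 1.98 lost points, 157 segments and 0.0085 for Trp53, which dyes as labelled also turned to 0.11.

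Autosomes called higher were 1 without P53_2979 and P53_5809, 2 with scan date as a block and 2 within scan date 1, and autosomes called lower were 2 without the pair and 1 each with scan block, normexp, loess and only probes well above background. Bins called higher and lower were 28 and 38 with the density peak as the centre, 17 and 49 with 2 Mb bins, 5 and 4 with array weights, 98 and 167 without the pair, 85 and 43 with scan block, 204 and 56 within scan date 1, and 99 and 47 with dyes as labelled. Bins called higher were 75 with normexp and 174 with bin means. Within scan date 2 limma called 0 and 0 bins (15 and 26 at an unadjusted p under 0.05) and 1 and 0 gene names (260 and 202). Gene names called higher and lower were 1083 and 850 with slide as a random block, 643 and 758 with array weights, 947 and 714 from medians of at least 2 probes, 765 and 925 without the pair and 812 and 593 with scan block. Those called lower were 961 with the density peak and 742 within scan date 1, and with dyes as labelled higher and lower changed places. The causes were not tested.

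Leaving out each array in turn, Trp53 ran from -0.18 to -0.04, the altered share from 29.2 to 40.4, the gained from 14.8 to 22.1, the lost from 12.5 to 18.3 and segments from 213 to 328. Autosomes called higher ran from 0 to 2 (without P53_5851) and lower from 0 to 1 (without C3TAg_8_RPT and others), bins higher from 26 (without P53_2979) to 88 (without P53_5851), bins lower from 43 (without P53_5809) to 144 (without P53_1573), names higher from 794 (without P53_5809) to 2262 (without P53_5851) and names lower from 677 to 1799 (without the same 2 arrays). Within scan date 2 the signs turned for Ppm1d (0.082), Sesn1 (0.044), Dusp10 (-0.028) and AK038675 (-0.38), and without the pair for AK049912 (-0.036). With 1 array left out, Dusp10 ran from -0.039 to 0.22 and AK049912 from -0.015 to 0.16. Of 785 values of single genes, bins and chromosomes under other settings 573 kept their call and 6 changed sign.

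No paired analysis was possible because the labels give tumor numbers that no other model shares. No comparison array was noisier than the noisiest p53-/- array, so that this alternative gave no value. Noise of up to 0.476 per probe limits how shallow a change can be called.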
